A study of Canis lupus familiaris with 30 samples.

Results

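The gut-brain peptides and peptide receptors followed here were *GAST*, *GRP*, *NTS*, *TAC1*, *VIP*, *GAL*, *NPY* and *PYY*, which encode secreted peptides, and *CCKBR* and *GALR1*, which encode receptors. They were taken from the count table by gene symbol. Of the 10 symbols, 9 had a row among the 30424 genes of the table, and *PYY* is not analysed here. RNA came from 30 primary thyroid gland tumors of dogs (*Canis lupus familiaris*), 1 library for each tumor. The study sorted these carcinomas into follicular tumors, which arise from the cells that make thyroid hormone, and medullary tumors, which arise from the calcitonin-making C cells. The sample labels give each tumor a library name but not its class. The study's own materials do assign a class to each tumor, but groups were taken from the sample labels alone. The tumors were therefore treated as unassigned, each value is given for a single tumor, and no follicular and medullary groups were compared. There were no replicate libraries of a tumor, and no age, treatment or batch stood in the labels.

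Gut-brain peptides are cut from larger precursors in secretory granules of endocrine cells and neurons. They act on receptors coupled to G proteins in nearby cells or at a distance. In the thyroid, C cells are neuroendocrine cells and can carry such peptides and their receptors, and nerve fibres around the follicles can hold *NPY* and *VIP* peptides. Bulk tumor RNA cannot tell a cell type that is present in larger numbers from one that holds more transcript in each cell.

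Between 12288945 and 45148677 reads were counted on genes in a tumor. The counts were divided by a size factor for each tumor, which ranged from 0.279 to 1.62, and levels are log2 of this normalized count plus 1. A count of 0 allows up to 3 counts, a normalized count of 1.85 to 10.8 depending on the tumor. Intervals and floors cover counting error only. Marker lists of 5 cell types were checked. The summed normalized count of 5 follicular cell genes ranged from 172 (TC1088) to 6873037, that of 5 C cell genes from 39.0 (TC902) to 693204, that of 7 nerve genes from 11.0 (TC1088) to 6560, that of 4 Schwann cell genes from 24.6 to 772 and that of 3 parathyroid genes from 4.37 to 45751. Such a sum is led by its most abundant gene. *TG* (thyroglobulin) made up 6595771 of the highest follicular sum, in TC1869. *CALCA*, a calcitonin gene, made up 620077 of the highest C cell sum, in TC1936. The highest parathyroid sum, in TC1020, was nearly all *CASR* (45742), which C cells carry too, with *PTH* at 9 counts and *GCM2* at 0 there. 2 libraries stood apart. TC538 had the lowest total and size factor. TC1088, labelled thyroid gland like the rest, had 12 counts of *TG* (thyroglobulin) and 1 of *TSHR* (the thyrotropin receptor). For this tumor the study reports the loss of a thyroid transcription factor, and it proposes that the tumor might be de-differentiated. The study treated it as an outlier and left it out of its differential expression tests. Without TC1088, the lowest follicular sum was 536 (TC2289) and the lowest nerve sum 18.3 (TC812).

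The members differed in how widely they were seen. *GALR1* reached 10 counts in 28 tumors, *CCKBR* in 24, *NTS* in 6, *NPY* in 4, and *GAST*, *GRP* and *TAC1* in 1 tumor each. *VIP* and *GAL* reached 10 counts in no tumor, which was so for 8.06% of all genes with a symbol. No member reached 10 counts in all 30 tumors, as 62.0% of all genes with a symbol did. In 5 tumors only 1 member reached 10 counts, in 17 tumors 2, in 6 tumors 3, and in TC1020 and TC1601 4.

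**Figure D1:**
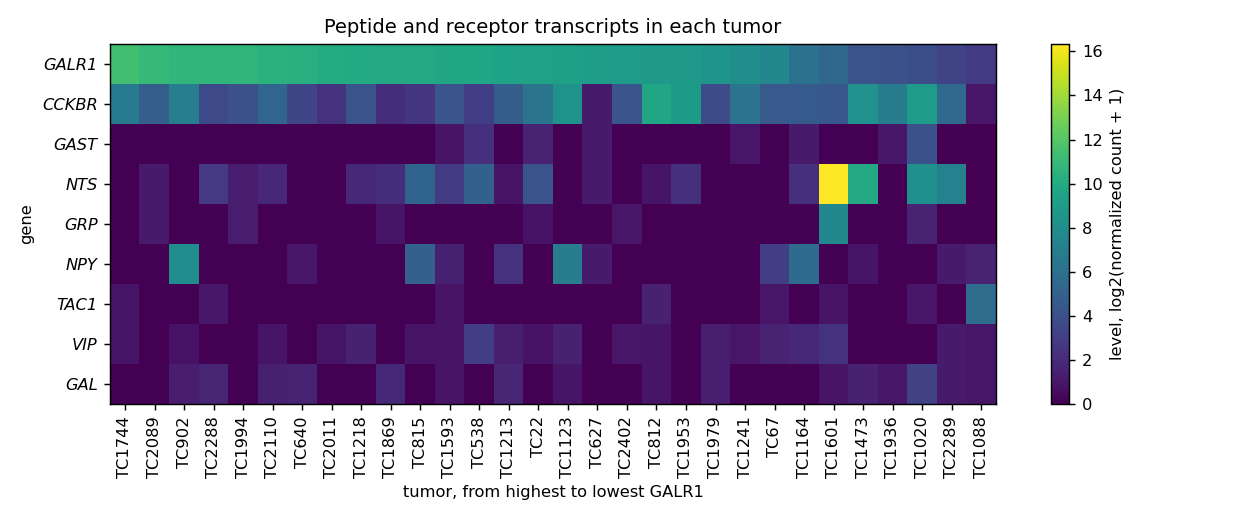
Level, log2(normalized count + 1), of the 9 members (rows) in each of the 30 tumors (columns, ordered from highest to lowest *GALR1*). *GALR1* and *CCKBR* were seen in most tumors, while *GRP*, *NTS*, *NPY* and *TAC1* stood out in 1 to a few columns, such as *NTS* in TC1601 (level 16.34).

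For 5 of the 7 members with at least 10 counts in some tumor, *NTS*, *NPY*, *GRP*, *TAC1* and *CCKBR*, the highest tumor lay at least 5 log2 units above the median tumor. The share over all 22221 genes with at least 10 counts in 1 tumor was 9.85%. The members were chosen with earlier results of these tumors known, so this count is a description. It also depended on the scale, since only *NTS* passed the limit with a pseudocount of 8 or with CPM, and *TAC1* no longer passed without TC1088, where its difference was 1.5. The difference between the highest and the median level was 15.12 for *NTS*, 7.92 for *NPY*, 7.64 for *GRP*, 5.85 for *TAC1*, 5.02 for *CCKBR*, 4.04 for *GAST* and 2.04 for *GALR1*. The median over the 22221 genes with at least 10 counts in 1 tumor was 2.11.

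**Figure D2:**
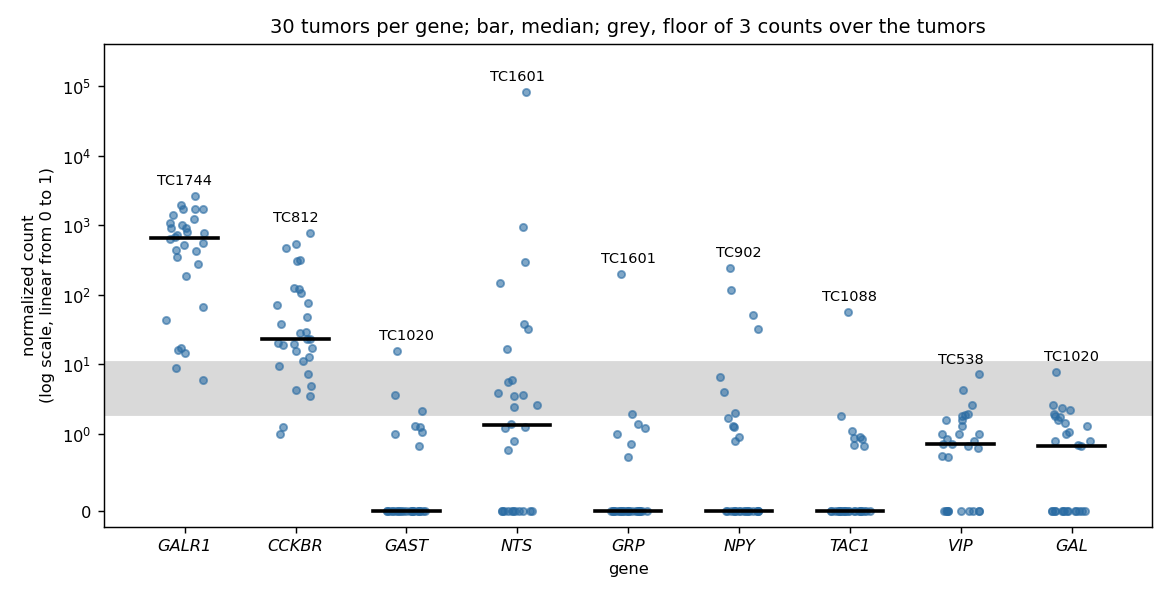
Normalized count (log axis, linear between 0 and 1) of each member in the 30 tumors; each point is a tumor, the bar is the median and the grey band spans the floor of 3 counts over the tumors. The highest tumor of each gene is named. The medians of *GAST*, *GRP*, *NPY* and *TAC1* lay at 0, and *VIP* and *GAL* stayed within or under the floor band. The top of the band is the floor of TC538. *VIP* in TC1601 and *GAL* in TC1020 lay above the floor of their own tumor.

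*NTS* (ENSCAFG00000005976) encodes the precursor of neurotensin, a peptide of the small intestine and brain. It was counted 96482 times in TC1601 (95% Poisson interval 95874 to 97093), which was 0.331% of all counts of that tumor (95% Wilson interval 0.329% to 0.333%) and 98.4% of all *NTS* counts in the 30 tumors. The next tumors were TC1473 with 1031 counts, TC1020 with 304, TC2289 with 114, TC815 with 46 and TC22 with 24. The other 24 tumors had 0 to 9 counts, and 11 of the 30 had 0. TC1601 was thus 88.3-fold above TC1473 in normalized count, and each of the 4 highest tumors was apart from the next by its counting interval. Against the median tumor, with each tumor set to at least its floor of 3 counts, TC1601 was 24839-fold higher. The C cell genes summed to a normalized count of 288143 in TC1601, 293970 in TC1473, 527568 in TC1020 and 218960 in TC2289. They summed to 693204 in TC1936, where *NTS* had 0 counts, and to at most 8767, in TC22, in the other tumors. The part of C cell content in the *NTS* values was not tested. Of the nearest genes in the order of the dog reference, chosen after the values were seen, *RASSF9* had 354 counts in TC1601 and was higher in 3 other tumors, and *MGAT4C* had 0.

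Neurotensin acts on *NTSR1* and *NTSR2*, and the sorting receptor *SORT1* binds it as well. *NTSR1* was at most 11 counts, in TC1020, and had 2 counts in TC1601. *NTSR2* was highest in TC1936 at 665 counts, where *NTS* itself had 0, followed in normalized count by TC1601 (86 counts) and TC1473 (79 counts). *SORT1* was counted in all tumors, from 1476 to 14631 times, with 8586 counts in TC1601. The highest *NTS* tumor and the highest tumor of each of these receptors were therefore different tumors.

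*GRP* (ENSCAFG00000000099) encodes gastrin-releasing peptide, a bombesin-like peptide. It was counted 231 times in TC1601 (95% Poisson interval 202 to 263), 2 times in TC1020 and at most 1 time in each of the other tumors, with 23 tumors at 0. TC1601 held 97.1% of the 238 *GRP* counts of the series and was 69.9-fold above the median tumor set to its floor. TC1601 thus had the highest values of both *NTS* and *GRP*. It also had the highest counts of *CALCB* (59189), a calcitonin family gene whose reads may be shared with its paralog *CALCA*, and *CHAT* (225), which makes acetylcholine. The part of these cell markers in the *NTS* and *GRP* values was not tested. *GRPR*, the receptor of gastrin-releasing peptide, ranged from 3 counts in TC1088 to 681 in TC1020, with a median of 151, and had 15 counts in TC1601. The related receptors *NMBR* and *BRS3* reached at most 29 and 24 counts.

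*CCKBR* (ENSCAFG00000006402) encodes the receptor that gastrin and cholecystokinin share. Its count ranged from 1 to 852, with a median of 24, and no tumor was at 0. The highest normalized counts were 778 in TC812, 531 in TC1020, 470 in TC1953, 315 in TC1123 and 307 in TC1473. Another 3 tumors lay between 106 and 127, and the other 22 at 76.0 or below. Only 3 of the 29 steps from a tumor to the next lower one were larger than the counting intervals, those from TC812 to TC1020, from TC1953 to TC1123 and from TC1473 to TC902. The lowest *CCKBR* values were 1 count each in TC627 and TC1088, under the floor. Of the neighbouring genes, chosen after the values were seen, *FAM160A2* and *CAVIN3* also had their highest normalized counts in TC812. *CNGA4* and *SMPD1* were each higher in 6 other tumors. The C cell genes summed to 3950 in TC812, 527568 in TC1020, 131 in TC1953, 410 in TC1123 and 293970 in TC1473. All 5 of these genes reached 10 counts in TC1020 and TC1473, but only 2 in TC812, TC1953 and TC1123. Their part in the *CCKBR* values was not tested.

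*GAST* (ENSCAFG00000015924), the gastrin precursor, had 16 counts in TC1020 (95% Poisson interval 9.15 to 26.0), 3 in TC22 and at most 1 in the others, with 22 tumors at 0. TC1020 was also the second highest tumor for *CCKBR*. The neighbouring genes *HAP1* and *EIF1*, chosen after the values were seen, had their highest normalized counts in TC1020 as well. *HAP1* was at 341 against a median of 9.60, and *EIF1* at 10785 against a median of 5177. Their part in the 16 *GAST* counts was not tested, and the strand setting of the counting is not given in the sources used here. *CCK*, the cholecystokinin precursor, was highest in TC67 at 118 counts, followed by 14 in TC1979 and at most 5 elsewhere, while in normalized count TC538 was second. *CCKAR*, the other cholecystokinin receptor, reached 3480 counts in TC1936 and 1828 in TC1020, against at most 66 in any other tumor. TC67, the tumor with the most *CCK*, had 24 counts of *CCKBR* and 1 of *CCKAR*.

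*GALR1* (ENSCAFG00000000015) encodes a galanin receptor. Its count ranged from 6 to 2837, with a median of 602, and its normalized count from 5.98 in TC1088 to 2658 in TC1744 (median 648). In 23 tumors the normalized count was 185 or higher, and in the other 7 it was 66.0 or lower. These low tumors were TC1164 (66.0), TC1601 (43.8), TC1473 (17.3), TC1936 (15.9), TC1020 (14.5), TC2289 (8.97) and TC1088 (5.98). The follicular cell genes summed to 616991 in TC1164, 222939 in TC1601, 2776 in TC1473, 7138 in TC1936, 3428 in TC1020, 536 in TC2289 and 172 in TC1088, beside a median of 355076 over all tumors. The part of follicular cell content in the low *GALR1* values was not tested. The gap between TC67, at 185, and TC1164 was larger than their counting intervals. At the upper end TC1744 was followed by TC2089 at 1932 and TC902 at 1717. Of the 29 steps from a tumor to the next lower one, 12 were larger than the counting intervals.

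The galanin precursor *GAL* (ENSCAFG00000010772) was at most 8 counts, in TC1020 (95% Poisson interval 3.45 to 15.8), and 14 tumors were at 0. Of the 3 tumors highest for *GALR1*, TC1744 and TC2089 had 0 counts of *GAL* and TC902 had 2. *GALP*, which encodes a galanin-like peptide, had 96 counts in TC1123 and 30 each in TC1164 and TC1744, and 0 to 6 in the others. Of the other galanin receptors, *GALR2* was highest in TC1601 (216 counts) and TC1213 (175 counts), and *GALR3* was at most 19 counts, in TC1601. TC1601 and TC2289, at 51 and 7 counts of *GALR1*, had 216 and 74 counts of *GALR2*. TC1213, with 175 counts of *GALR2*, had 908 of *GALR1*. The *GALR2* counts of the other tumors low for *GALR1* are not given here.

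The pattern of *GALR1* over the tumors was compared with that of all genes with at least 10 counts in 10 tumors. The most alike of 17162 genes was *SLC5A5*, the iodide transporter of follicular cells, with a Spearman's rho of 0.81 and a Pearson's r of 0.73 over 30 tumors. *KCNC4*, a potassium channel gene, had a rho of 0.79 and an r of 0.88, and *MT3*, a metallothionein gene, a rho of 0.78 and an r of 0.83. These genes were picked for the highest rho, and both genes of a pair come from the same library, with its depth and cell content, so no test is given. When the tumors were clustered on the 500 most variable genes, members left out, 25 fell on a larger branch. Within it the rho was 0.75 for *SLC5A5*, 0.65 for *KCNC4* and 0.64 for *MT3*. *SLC5A5* was at 0 counts in TC812 and 8 in TC1241, where *GALR1* had 474 and 273 counts.

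For *CCKBR* the genes most alike were *THYN1* (rho 0.74), *CACNA1C* (rho 0.73), a subunit of a calcium channel, and *WDR61* (rho 0.71), over the same 30 tumors. Within the 25 tumors of the larger branch the values were 0.71, 0.70 and 0.60. *CACNA1C* was highest in TC1473, at 9383 counts, and lowest in TC2402, at 108. *THYN1* and *WDR61* were highest in TC812, as *CCKBR* was, at 305 and 1738 counts.

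**Figure D3:**
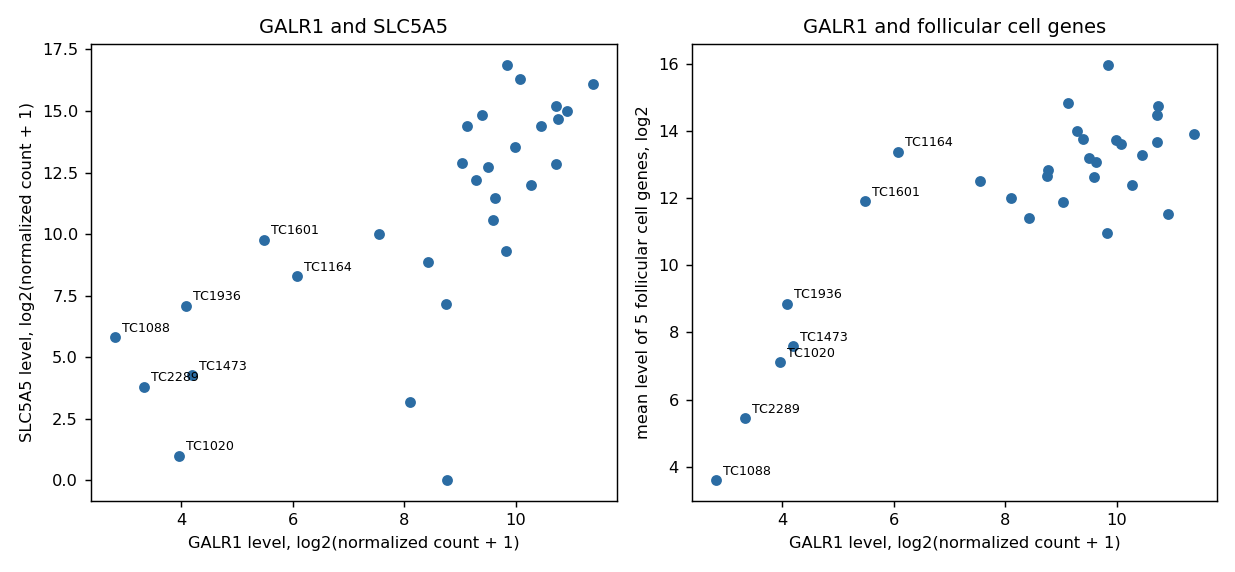
Level of *GALR1* (horizontal axis) against the level of *SLC5A5* (left) and the mean level of 5 follicular cell genes (right), all as log2 of the normalized count plus 1. Each point is 1 of the 30 tumors, and the 7 tumors with a *GALR1* normalized count of 66.0 or lower are named. TC1088 and TC2289, the lowest for *GALR1*, were also lowest for the follicular cell genes, while TC1164 and TC1601 were not.

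The clustering was cut into 2 branches, a number set beforehand. Relations were tested within the 25 tumors of the larger branch only, with two-sided permutation tests. *GALR1* and *CCKBR* were the members with at least 10 counts in 10 of those tumors, and with each other and with the marker lists they gave 11 pairs. None had a Benjamini-Hochberg adjusted p below 0.05. *CCKBR* and *GALR1* had an r of 0.20 (permutation test, p = 0.334, adjusted p = 0.678) and a rho of 0.00 (p = 0.99, adjusted p = 0.99 by permutation test), with an r of 0.32 (permutation p = 0.139) without TC812 and TC1953. *GALR1* and the mean level of the follicular cell genes had an r of 0.73 (permutation test, p = 0.00479, adjusted p = 0.0527) and a rho of 0.40 (permutation test, p = 0.0471, adjusted p = 0.259). Without TC1088 and TC1164, the tumors farthest from the median of *GALR1*, this r was 0.34 (permutation test, p = 0.117). Without TC1088 alone it was 0.24 (permutation test, adjusted p = 0.931), so the r of 0.73 rests on TC1088. The rho without TC1088 alone was 0.33 (permutation test, adjusted p = 0.435).

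*GALR1* and the C cell genes had an r of 0.33 (permutation test, p = 0.0996, adjusted p = 0.548) and a rho of 0.44 (permutation test, p = 0.0279, adjusted p = 0.259). Without TC1088 and TC1164 the r was 0.26 (permutation p = 0.223). With the nerve genes, *GALR1* had an r of -0.19 (permutation test, p = 0.37, adjusted p = 0.678) and a rho of -0.31 (permutation test, p = 0.128, adjusted p = 0.468). Its r was -0.45 (permutation p = 0.0312) without TC1088 and TC1164, and -0.62 without TC1088 alone (permutation test, adjusted p = 0.0126). The adjusted p of this r over its other alternatives ranged from 0.601 to 0.859. The rho without TC1088 alone was -0.47 (permutation test, adjusted p = 0.236). The nerve genes were near the floor, since only 0 to 2 of the 7 reached 10 counts in any tumor of this branch. Their highest mean level in the branch was 2.51, in TC1164, a tumor low for *GALR1*. With the Schwann cell genes *GALR1* had an r of 0.19 and a rho of 0.11, and with the parathyroid genes an r of 0.10 and a rho of -0.02. For *CCKBR*, the r with the marker lists lay between -0.10 (parathyroid genes) and 0.26 (follicular cell genes), and the rho between -0.06 and 0.20.

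*NPY* (ENSCAFG00000002801) encodes neuropeptide Y, a peptide of sympathetic nerves. It was counted 339 times in TC902 (95% Poisson interval 304 to 377), 128 times in TC1123, 39 times each in TC1164 and TC815, and 0 to 7 times in the other 26 tumors, 18 of which had 0. TC902 was 80.1-fold above the median tumor set to its floor. In TC902, 5 of the 7 nerve genes had 0 counts and their summed normalized count was 40.5, against a median of 83.1 over the tumors. This sum was 115 in TC1123 and 97.1 in TC1164, both above that median, and 31.8 in TC815. The highest nerve sums were in TC1473 (6560), TC1020 (4216), TC2289 (2661) and TC1601 (944), which also had high C cell sums, and the part of nerve content in the *NPY* values was not tested. *NPY2R* was highest in the same tumor, TC902, at 214 counts, and next by count in TC22 at 44, while in normalized count TC1020 was second. *NPY1R* was highest in TC1123, the second highest *NPY* tumor, at 933 counts, and ranged down to 4 with a median of 71.5. *NPY5R* was highest in TC1241 at 143 counts, a tumor with 0 counts of *NPY*.

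*TAC1* (ENSCAFG00000002207) encodes the precursor of substance P and neurokinin A. It was counted 57 times in TC1088 (95% Poisson interval 43.2 to 73.9), 2 times in TC812 and at most 1 time elsewhere, with 22 tumors at 0. TC1088 was 20.5-fold above the median tumor set to its floor. TC1088 also had the most counts of *TACR1*, the substance P receptor, at 84, where the other tumors had 1 to 56, but in normalized count TC1994 was close, at 78.6 against 83.7. *TACR2* was highest in TC2011 at 99 counts and *TACR3* at most 10. The nerve marker sum in TC1088 was 11.0, the lowest of the series.

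*VIP* (ENSCAFG00000000538), the precursor of vasoactive intestinal peptide, was at most 5 counts, in TC1601 (95% Poisson interval 1.62 to 11.7), and had 32 counts in all over the 30 tumors. TC1601 was the only tumor with more than 3 counts, so *VIP* was not detectable above the floor in the other 29 tumors at this depth. Its receptors were seen. *VIPR1* ranged from 2 to 181 counts (median 16.5), and *VIPR2* from 0 to 1019 (median 43), highest in TC1601. By count TC2011 (524) and TC1936 (483) followed, while in normalized count TC1936 was second.

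**Figure D4:**
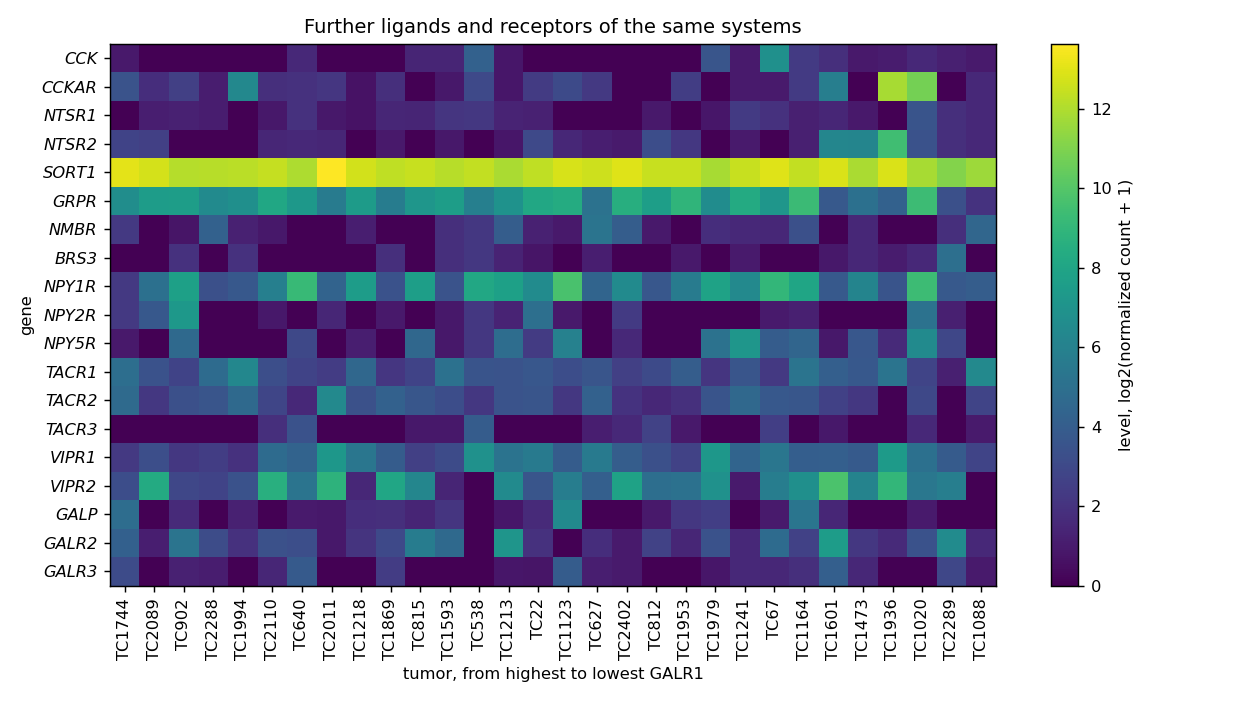
Level, log2(normalized count + 1), of 19 further ligands and receptors of the same peptide systems (rows) in the 30 tumors (columns, ordered by *GALR1* as in the plot of the members). *SORT1* was high in every tumor, *CCKAR* in TC1936 (3480 counts) and TC1020 (1828 counts), *NTSR2* in TC1936 (665 counts) and *NPY2R* in TC902 (214 counts).

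The other gut-brain genes of a wider list were described in the same way. Of 33 further ligands, 25 had a row, and 7 of these reached 10 counts in no tumor and 7 in at least 15 tumors. Of 27 further receptors, 25 had a row, and 2 reached 10 counts in no tumor and 12 in at least 15. The share in no tumor over all genes with a symbol was 8.06%, close to that of the receptors and below that of the ligands. No share over all genes is given here for the limit of 15 tumors, so those counts are a description only. The highest-minus-median difference had a median of 5.02 over the 9 members, 2.13 over the further ligands and 3.94 over the further receptors. These medians include every gene with a row, also those under 10 counts in all tumors. Among the ligands with the highest level in any tumor were *NMU* (neuromedin U), at 1295 counts in TC1936, *GHRL* (the ghrelin precursor), between 14 and 325 counts in all 30 tumors, *GCG* (the glucagon precursor), at 243 counts in TC2288 and at most 2 elsewhere, and *NMS* (neuromedin S), at 7 to 175 counts. Among the receptors, *GCGR* (the glucagon receptor) reached 6223 counts in TC1936, *GIPR* 2158 in TC1020 and *ADCYAP1R1* 1718 in TC1979. Of the enzymes that cut and finish peptide precursors, *PCSK1* ranged from 1 to 49358 counts, *PCSK2* from 3 to 72941, *CPE* from 38 to 36640, and *PAM*, which amidates most of these peptides, from 1719 to 87569.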

How the data were processed

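Total RNA libraries depleted of ribosomal RNA (Zymo-Seq RiboFree) were sequenced as paired-end reads by the authors and mapped to CanFam3.1 with STAR, whose gene counting gave the deposited raw counts of reads per Ensembl gene and tumor, without normalization (Ensembl annotation). The strand setting is not given in the sources used here, so overlapping and antisense genes are uncertain. How reads shared by paralogs such as *CALCA* and *CALCB* were counted was not examined. The table held 30424 genes, 15780 with a symbol, and 0 columns of no tumor. Samples were unassigned because the labels give no tumor class.

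Median-of-ratios size factors rested on 15611 genes that had at least 1 count in every tumor. TMM scaling with edgeR 4.0.16 in R 4.3.3 was an alternative, as were CPM, a pseudocount of 8, other count limits, and leaving out TC538 or TC1088. No count model was fitted. Correlations used 100000 permutations, and Ward clustering used the 500 most variable genes without the members (at least 10 counts in 5 tumors). Python 3.11.15 with numpy 2.4.6, scipy 1.17.1, pandas 2.3.3 and matplotlib 3.10.9 was used. Gene order came from the UU_Cfam_GSD_1.0 table, by symbol. Members and lists were chosen with earlier results of these data known. Named genes were the members, their receptors or ligands, the 3 genes most alike by rho, the marker lists, and the 5 further ligands and 5 further receptors with the highest level. Some marker genes are not reported here by name. The routines were tested on simulated counts.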

Additional observations from a re-analysis of the deposited data

How the results depend on the processing

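The tumors on the smaller branch stayed at 5 with complete linkage and with the 2000 most variable genes, and the 3 genes most alike to *GALR1* and to *CCKBR* were shared with a stricter filter of 10 counts in 20 tumors. The number of tumors with *CCKBR* at the count limit fell to 13 with a limit of 30 counts and that of *GAST* to 0, and that of *TAC1* to 0 without TC1088. The members past 5 log2 units fell to 1 both with CPM and with a pseudocount of 8. The share of all genes fell to 4.99% with a pseudocount of 8 and is not given here for CPM. With a pseudocount of 8 the highest-minus-median level was 4.66 for *CCKBR*, 4.69 for *GRP*, 3.02 for *TAC1*, 4.96 for *NPY* and 13.12 for *NTS*. The low medians make these differences depend on the pseudocount by construction.

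Among correlations in the larger branch, *GALR1* with the follicular cell genes had an r of 0.73 with TMM scaling (permutation test, adjusted p = 0.0484) and 0.24 without TC1088 (adjusted p = 0.931 by permutation), and *GALR1* with the nerve genes an r of -0.62 without TC1088 (permutation test, adjusted p = 0.0126). The rho of *GALR1* without TC1088 was 0.33 with the follicular cell genes (permutation test, adjusted p = 0.435). With the nerve genes it was -0.47 (permutation test, adjusted p = 0.236). Signs turned for weak values. Without TC1088 these were *CCKBR* with *GALR1* (r -0.10, rho -0.13), with the C cell genes (r -0.03), with the follicular cell genes (r -0.07, rho -0.00) and with the Schwann cell genes (r -0.09), and *GALR1* with the Schwann cell (r -0.02) and parathyroid genes (rho 0.00). With a pseudocount of 8 they were *CCKBR* with the C cell (rho 0.10), Schwann cell (r -0.19) and parathyroid genes (rho -0.05). They also were *CCKBR* with the Schwann cell genes without TC538 (r -0.08) and with the parathyroid genes under TMM scaling (rho -0.02). The cause was not tested. No paired analysis was possible because the labels put no tumor in a group.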

Other observations

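Ward clustering of the 500 most variable genes, with the members left out, put TC1020, TC1473, TC1601, TC1936 and TC2289 on a branch of 5 tumors and the other 25 on the larger branch. The branches come from the data and are not groups given by the labels, so no test between them is reported. On the smaller branch, *NTS* had 304 counts in TC1020, 1031 in TC1473, 96482 in TC1601, 0 in TC1936 and 114 in TC2289, and on the larger one 0 to 46. *GALR1* had 15, 19, 51, 15 and 7 counts in the same order, and 6 to 2837 on the larger branch, where TC1088 (6) and TC1164 (51) were the lowest. *CCKBR* had 549, 337, 24, 114 and 37 counts in that order (median normalized count 121), and 1 to 852 on the larger branch (median normalized count 19.3), where 19 tumors reached 10 counts. *NPY* had 0, 1, 0, 0 and 1 counts on the smaller branch, and each tumor with 10 or more counts of *NPY* was on the larger one.

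Parathyroid genes and *GCG* were high in the same tumor, TC2288, with 25445 counts of *PTH*, 178 of *GCM2* and 243 of *GCG*. *CASR*, the calcium-sensing receptor that C cells and parathyroid cells both carry, was highest in TC1020 at 47292 counts, where *PTH* had 9 counts. *CCKAR*, *NTSR2*, *NMU*, *GCGR*, *PCSK1*, *PCSK2* and *PAM* all had their highest count in TC1936.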
